A study of Homo sapiens with 6 samples.

Results

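The SMADs and their SKI corepressors were followed in HK2 cells, a line of human proximal tubular epithelial cells, when SIRT4 was overexpressed under TGF-β1. The cell line field of the labels counts upward from one sample to the next, whereas the titles and the study speak of HK2 alone, and HK2 was assumed here throughout. The family was taken as 10 gene symbols, *SMAD1* to *SMAD7*, *SMAD9*, *SKI* and *SKIL*, and all 10 were found among the 38100 genes of the count table. All 10 passed the filter on low counts, which left 17720 genes for the test. The control cells had received an adenovirus with an empty vector (AdCtrl+TGF) and the others an adenovirus carrying SIRT4 (AdSirt4+TGF), with 3 samples in each group. Both groups were of wild-type genotype, and both had been stimulated with TGF-β1, so that no sample shows the family without an adenovirus or without the cytokine. The labels give no dose or duration of the stimulation, and the species of the *SIRT4* insert is not given in the sources used here. Poly(A) RNA of whole cultures was sequenced, so fewer cells of a kind and less RNA per cell cannot be told apart.

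SMAD proteins carry the signal of TGF-β family receptors to the nucleus. TGF-β and activin receptors phosphorylate SMAD2 and SMAD3, whereas receptors of bone morphogenetic proteins (BMPs) phosphorylate SMAD1, SMAD5 and SMAD9, and either set joins SMAD4 to bind DNA. SMAD6 and SMAD7 are inhibitory SMADs that block the receptors or the complex with SMAD4, and SKI and SKIL (SnoN) are nuclear proteins that bind the SMAD complex and recruit corepressors. *SMAD7* and *SKIL* are themselves well-known targets of TGF-β signaling and *SMAD6* of BMP signaling, so that these genes form negative feedback loops. In renal tubular cells the SMAD3 branch is known for its part in fibrosis.

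The sequences before the start sites of *SMAD7*, *SMAD6* and *SKIL* are shown because these are the feedback inhibitors of the family and had the largest increases in the comparison below. Each runs 5′ to 3′ on the strand of its gene and holds the 250 bases before the start site, from RefSeq on GRCh38.p14. The *SMAD7* stretch is chr18:48950966-48951215 (minus strand), the *SMAD6* stretch is chr15:66701986-66702235 (plus strand), and the *SKIL* stretch is chr3:170357465-170357714 (plus strand). Capitals mark the motifs that were searched on both strands: the SMAD box CAGAC (its reverse is GTCTG), the SMAD palindrome GTCTAGAC, the GC-rich site GGCGCC, the cyclic AMP response element TGACGTCA and the AP-1 site TGAGTCA. These motifs do not contain one another.
SMAD7: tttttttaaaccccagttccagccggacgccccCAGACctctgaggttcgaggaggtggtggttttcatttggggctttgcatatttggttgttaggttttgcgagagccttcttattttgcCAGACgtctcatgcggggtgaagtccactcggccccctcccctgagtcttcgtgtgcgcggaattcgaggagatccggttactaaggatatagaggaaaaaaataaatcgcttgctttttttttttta
SMAD6: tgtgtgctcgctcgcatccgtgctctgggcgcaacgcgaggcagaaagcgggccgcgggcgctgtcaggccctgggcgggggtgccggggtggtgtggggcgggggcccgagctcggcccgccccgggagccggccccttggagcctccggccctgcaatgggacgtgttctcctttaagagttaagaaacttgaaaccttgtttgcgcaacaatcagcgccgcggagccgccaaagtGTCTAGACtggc
SKIL: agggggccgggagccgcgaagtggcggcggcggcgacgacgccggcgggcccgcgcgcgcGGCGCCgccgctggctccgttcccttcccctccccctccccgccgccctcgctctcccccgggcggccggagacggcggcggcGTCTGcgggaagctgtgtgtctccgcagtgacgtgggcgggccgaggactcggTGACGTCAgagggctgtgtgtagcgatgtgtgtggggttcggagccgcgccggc
The *SMAD7* stretch holds the SMAD box at 217 and 128 bases before the start site. It is the window that adjoins the start of the gene at 48950965, and *SMAD7* has other start sites. Of their windows, chr18:48949334-48949583 holds the SMAD box at 193 bases, and chr18:48942808-48943057 holds none of the motifs. The *SMAD6* stretch holds the SMAD palindrome 12 bases before the start site. The *SKIL* stretch holds the GC-rich site at 190 bases, the SMAD box at 107 bases and the cyclic AMP response element at 54 bases before the start site. Of all 35116 RefSeq windows of this length, 38.0% hold the SMAD box, 16.4% the GC-rich site, 4.20% the AP-1 site, 1.65% the cyclic AMP response element and 0.182% the SMAD palindrome. A window was present for 9 of the 10 genes, *SKI* being the exception, with 20 windows in all. The palindrome was in 1 of these 20 windows, the cyclic AMP response element in 1, the AP-1 site in 2, the SMAD box in 6 and the GC-rich site in 7. The windows with the SMAD box belong to 4 genes and those with the GC-rich site to 5. Some genes have several windows, which can overlap, so the windows are not independent. A match describes the letters of the window and does not show that a factor binds there.

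The libraries held 41537353 to 85684748 counts. *SIRT4*, the overexpressed gene, ranged from 31 to 57 counts in the AdCtrl+TGF libraries and from 1996 to 7995 in the AdSirt4+TGF libraries. Of the 6 epithelial markers, 5 exceeded 1 CPM (counts scaled by library size and the TMM factor) in every library, and *CDH1* did not, with 0.505 to 0.869 CPM. Of the 10 proximal tubule markers, *PAX8* and *GGT1* were among those above 1 CPM in every library, while *HNF4A* and *SLC22A6* stayed under 0.1 CPM in all of them and *LRP2*, *CUBN*, *AQP1*, *ANPEP* and *SLC34A1* lay between 0 and 0.906 CPM. The summed level of the 6 fibroblast markers was 18.8 to 20.2 CPM in AdCtrl+TGF and 17.7 to 24.6 CPM in AdSirt4+TGF, most of it from *LUM*, and *COL3A1* had no count. The 5 endothelial markers summed to 0.425 to 0.588 CPM and 0.411 to 0.742 CPM. The 5 leukocyte markers summed to 34.3 to 39.7 CPM and 38.4 to 49.6 CPM, most of it from *CD68*, and *CD3E* had no count. One library stood apart. In AdSirt4+TGF replicate 1, relative to the other AdSirt4+TGF replicates, the median log2 CPM differed by 0.59 in the shortest 10% of genes and by -0.57 in the longest 10%, and across 14503 genes its deviation had a Spearman correlation of -0.51 with exon length. In the AdCtrl+TGF libraries this correlation lay between -0.12 and 0.15. AdSirt4+TGF replicate 1 also had the lowest *SIRT4* of its group, 51.2 CPM beside 92.7 and 84.0 CPM in replicates 2 and 3. The fold changes of the members are therefore also given without this library.

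Per length of transcript, the corepressors and *SMAD3* were the most abundant members. Levels between genes were compared as CPM per kb of merged annotated exons (GENCODE v29). In AdCtrl+TGF cells *SMAD3* stood at 13.9 ± 1.04 CPM per kb (SD, n = 3), *SKI* at 12.9 ± 0.627 and *SKIL* at 12.6 ± 0.889, and the ranges of neighbors among these 3 genes overlapped. *SMAD5* (6.50 ± 0.329 CPM per kb), *SMAD4* (6.11 ± 0.0288), *SMAD7* (4.98 ± 0.203) and *SMAD1* (4.69 ± 0.168) followed. In this order *SMAD5* overlapped with *SMAD4* and *SMAD7* with *SMAD1*, whereas every library of *SMAD4* lay above every library of *SMAD7*. *SMAD6* reached 2.74 ± 0.0924 CPM per kb, *SMAD2* 1.78 ± 0.119 and *SMAD9* 0.366 ± 0.0846, each separate from its neighbors. The place of *SMAD2* depends on its length, since its merged exons span 36.4 kb, against 13.1 kb for *SMAD4*, the next longest. The deposited FPKM values put *SMAD3* first and *SMAD6*, *SMAD2* and *SMAD9* last as well. They differ in the middle, with *SKIL* above *SKI* and *SMAD1* at rank 4 in AdCtrl+TGF, against rank 7 per kb. They also put *SMAD7* at rank 7 in AdCtrl+TGF and rank 3 in AdSirt4+TGF. They imply a length of 36.9 to 38.8 kb for *SMAD2*. For *SMAD9* they imply 10.8 to 13.3 kb, where its merged exons span 5.72 kb, so its level per length is uncertain. In AdSirt4+TGF cells *SMAD7* moved from the sixth to the fourth place, at 8.37 ± 0.343 CPM per kb, and every library of *SMAD7* then lay above every library of *SMAD4*.

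**Figure D1:**
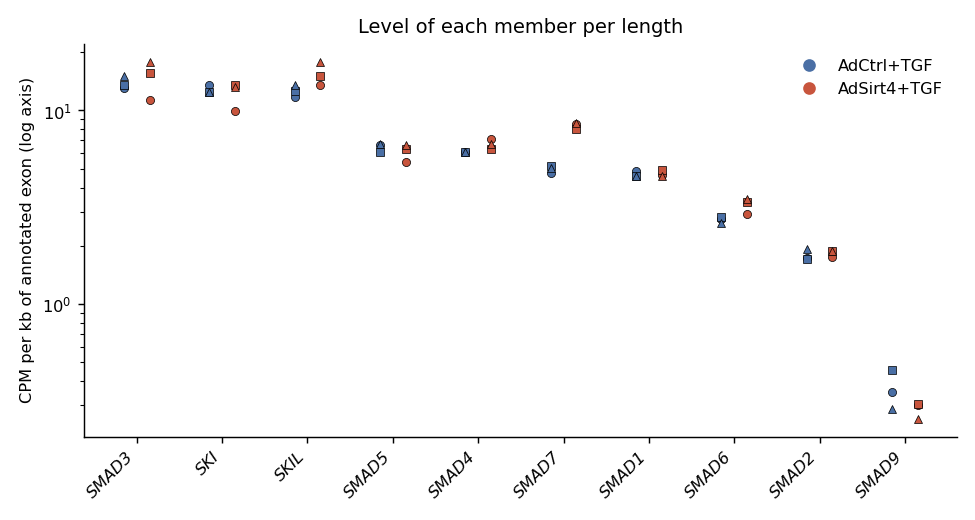
Level of each member in the 6 libraries, as CPM per kb of merged annotated exons on a log axis, with genes ordered by their mean in AdCtrl+TGF (blue) and AdSirt4+TGF in red; circles, squares and triangles stand for replicates 1, 2 and 3. *SMAD3*, *SKI* and *SKIL* lie at the top, *SMAD9* at the bottom, and *SMAD7* is the gene whose red points are clearly apart from the blue ones.

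Whether SIRT4 overexpression moved the family was tested for each gene with edgeR's quasi-likelihood test across all 17720 genes. None of the 10 members passed an adjusted p of 0.05, where 0.0113% of all genes did. *SMAD7* and *SMAD6* were the 2 members with an unadjusted p under 0.05 in edgeR, and both were higher in AdSirt4+TGF, where 4.43% of all genes were higher at this p. DESeq2 called 1 member, *SMAD7*, where 0.525% of all genes were called higher and 0.223% lower. Limma voom with sample quality weights called *SMAD6*, *SMAD7* and *SKIL* higher, where 4.62% of all genes were called higher and 4.12% lower. These 3 genes were also called by edgeR without AdSirt4+TGF replicate 1, where 3.37% of all genes were called higher and 3.34% lower. For 3 members, *SMAD4*, *SMAD6* and *SMAD7*, every AdSirt4+TGF library lay above every AdCtrl+TGF library in CPM, where 9.66% of all genes did so. Only for *SMAD7* did the same hold in FPKM, where the share of all genes was not taken. The log2 fold change (AdSirt4+TGF over AdCtrl+TGF) was above 0 for 7 members and below 0 for 3, where 9459 of the 17720 genes were above 0. The median was 0.071 beside 0.021 for all genes. Leaving out AdSirt4+TGF replicate 1, the log2 fold change was above 0 for 8 members, where 9031 of 18287 genes were above 0. The median was then 0.086 beside -0.003 for all genes.

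**Figure D2:**
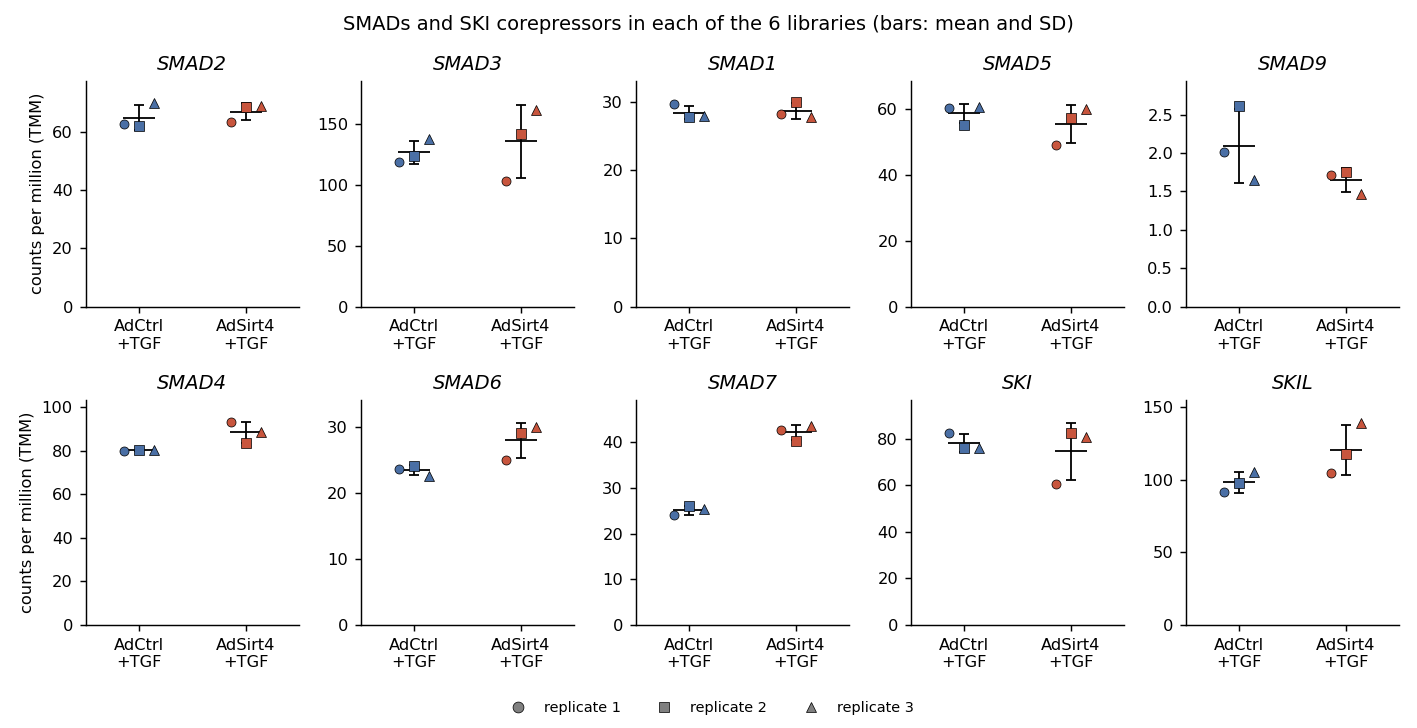
CPM of the 10 members in each library, 1 panel per gene with its own axis from 0; points are libraries, with the replicate number given by the symbol, and bars show the mean and SD of 3. *SMAD7* is at 24.0 to 26.0 CPM in AdCtrl+TGF and at 40.2 to 43.5 CPM in AdSirt4+TGF, and replicate 1 is the lowest AdSirt4+TGF library for *SMAD2*, *SMAD3*, *SMAD5*, *SMAD6*, *SKI* and *SKIL*.

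The largest difference of the family was that of an inhibitory SMAD. *SMAD7* (Entrez gene 4092, chromosome 18 from 48919853 to 48950965, minus strand) had 24.0, 26.0 and 25.3 CPM in AdCtrl+TGF replicates 1, 2 and 3, and 42.7, 40.2 and 43.5 CPM in AdSirt4+TGF replicates 1, 2 and 3. The groups were far apart, and replicate 1 of AdSirt4+TGF was within the range of the other 2. *SMAD7* was higher by 0.75 on the log2 scale (95% interval 0.53 to 0.96), a fold of 1.68. Its unadjusted p from edgeR was 6.92e-05, the sixth smallest of all genes, and its adjusted p was 0.204. A two-sided exact permutation test gave 0.1, the lowest p it can reach with 3 samples against 3. Without AdSirt4+TGF replicate 1 *SMAD7* differed by 0.73 on the log2 scale (edgeR, adjusted p = 0.000309). With samples blocked by replicate number its unadjusted p in edgeR rose to 0.000562 (adjusted p = 0.639). DESeq2 gave *SMAD7* an adjusted p of 1.31e-08. Over all 17 alternatives its log2 fold change stayed between 0.63 and 0.79 and its adjusted p ran from 1.31e-08 to 0.971.

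*SMAD6* (Entrez gene 4091, chromosome 15 from 66702236 to 66782849, plus strand), the inhibitory SMAD best known from the BMP branch, had 23.6, 24.1 and 22.6 CPM in AdCtrl+TGF replicates 1, 2 and 3 and 24.92, 28.99 and 29.91 CPM in AdSirt4+TGF replicates 1, 2 and 3. AdSirt4+TGF replicate 1 lay just above the highest control, and the other 2 lay well above it. In FPKM the groups of *SMAD6* overlapped, with 4.24 to 4.76 in AdCtrl+TGF and 4.39 to 5.58 in AdSirt4+TGF, and the gene length that FPKM and counts imply varied from 4.85 to 5.74 kb between libraries. It differed by 0.25 on the log2 scale, with a standard error of 0.105 and an adjusted p of 0.621 in edgeR. With samples blocked by replicate number its unadjusted p in edgeR rose from 0.0452 to 0.0778 (adjusted p = 0.694). Without AdSirt4+TGF replicate 1 the log2 fold change was 0.33 and the adjusted p 0.0179 from edgeR. Limma voom with sample quality weights gave *SMAD6* an adjusted p of 0.0120. With the trend on gene length removed instead, its adjusted p from edgeR was 0.270.

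Of the corepressors, *SKIL* was called without AdSirt4+TGF replicate 1 and with sample quality weights, and *SKI* in none of the 17 alternatives. *SKIL* (Entrez gene 6498, chromosome 3 from 170357715 to 170396849, plus strand) had 91.2, 98.0 and 105.1 CPM in AdCtrl+TGF replicates 1, 2 and 3 and 104.9, 117.4 and 138.7 CPM in AdSirt4+TGF replicates 1, 2 and 3. AdSirt4+TGF replicate 1 was level with the highest control library, and the other 2 were above all controls. *SKIL* differed by 0.30 on the log2 scale, with a standard error of 0.128 and an adjusted p of 0.633 in edgeR. Without AdSirt4+TGF replicate 1 the difference was 0.38 (edgeR, adjusted p = 0.0199), and without AdSirt4+TGF replicate 3 it was 0.18. Limma voom with sample quality weights gave 0.0223. With the trend on gene length removed, the adjusted p of *SKIL* was 0.288 in edgeR. With samples blocked by replicate number, its unadjusted p in edgeR went from 0.0541 to 0.0380 (adjusted p = 0.686).

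*SKI* (Entrez gene 6497, chromosome 1 from 2228319 to 2310213, plus strand) had 82.6, 76.0 and 76.0 CPM in AdCtrl+TGF replicates 1, 2 and 3 and 60.5, 82.3 and 80.7 CPM in AdSirt4+TGF replicates 1, 2 and 3. Replicate 1 was the only AdSirt4+TGF library below the controls. *SKI* differed by -0.07 on the log2 scale (95% interval -0.39 to 0.25, edgeR adjusted p = 0.872), and by 0.05 without AdSirt4+TGF replicate 1 (adjusted p = 0.578).

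The receptor-activated SMADs of the TGF-β branch showed no difference that passed the test. *SMAD3* (Entrez gene 4088, chromosome 15 from 67065602 to 67195169, plus strand) had 118.7, 123.8 and 137.0 CPM in AdCtrl+TGF replicates 1, 2 and 3 and 103.0, 141.6 and 161.3 CPM in AdSirt4+TGF replicates 1, 2 and 3. The AdSirt4+TGF libraries lay on both sides of the controls, with replicate 1 below them and the other 2 above. *SMAD3* differed by 0.10 on the log2 scale (95% interval -0.31 to 0.50, edgeR adjusted p = 0.862). Without AdSirt4+TGF replicate 1 the difference was 0.25 (edgeR, adjusted p = 0.0600), and without AdSirt4+TGF replicate 3 it was -0.05. *SMAD2* (Entrez gene 4087, chromosome 18 from 47808957 to 47930872, minus strand) had 62.6, 62.1 and 69.8 CPM in AdCtrl+TGF and 63.4, 68.6 and 68.7 CPM in AdSirt4+TGF, so that the groups overlapped fully. It differed by 0.04 on the log2 scale (95% interval -0.17 to 0.26, edgeR adjusted p = 0.880), and by 0.08 without AdSirt4+TGF replicate 1. With the trend on gene length removed the log2 fold change of *SMAD2* was 0.40, with a wider interval (95% interval -0.15 to 0.95, adjusted p = 0.572 from edgeR).

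None of the SMADs of the BMP branch passed the test in any of the fits. *SMAD1* (Entrez gene 4086, chromosome 4 from 145480770 to 145559176, plus strand) had 29.6, 27.8 and 27.9 CPM in AdCtrl+TGF and 28.2, 29.9 and 27.8 CPM in AdSirt4+TGF, with a log2 fold change of 0.01 (95% interval -0.20 to 0.22). *SMAD5* (Entrez gene 4090, chromosome 5 from 136132845 to 136182733, plus strand) had 60.3, 55.3 and 60.6 CPM in AdCtrl+TGF and 49.2, 57.3 and 60.2 CPM in AdSirt4+TGF, with a log2 fold change of -0.08 (95% interval -0.33 to 0.17). This was -0.006 both without AdSirt4+TGF replicate 1, the lowest library, and with the trend on gene length removed, and *SMAD1* was at 0.02 without that library. For both genes the groups overlapped. *SMAD9* (Entrez gene 4093, chromosome 13 from 36844831 to 36920854, minus strand) was the rarest member, with 109, 111 and 85 raw counts in AdCtrl+TGF and 67, 151 and 119 in AdSirt4+TGF. In CPM these were 2.02, 2.61 and 1.65 against 1.72, 1.75 and 1.46, with overlapping groups and a log2 fold change of -0.35 (95% interval -0.86 to 0.17, adjusted p = 0.724 from edgeR). The *SMAD9* difference was -0.38 without AdSirt4+TGF replicate 1, -0.16 without AdCtrl+TGF replicate 2 and -0.49 without AdCtrl+TGF replicate 3. Antisense rows next to these genes held few reads. *SMAD1-AS1* reached at most 2 counts in a library, *SMAD1-AS2* at most 8 and *SMAD5-AS1* at most 15, and the strand setting of the counting is not given in the sources used here.

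*SMAD4* (Entrez gene 4089, chromosome 18 from 51030213 to 51085042, plus strand), the SMAD shared by both branches, had 79.8, 80.2 and 80.5 CPM in AdCtrl+TGF replicates 1, 2 and 3 and 93.3, 83.4 and 88.5 CPM in AdSirt4+TGF replicates 1, 2 and 3. The controls were almost identical, and all AdSirt4+TGF libraries lay above them, replicate 1 being the highest. In FPKM the groups overlapped, since AdSirt4+TGF replicate 2 (8.37) was level with AdCtrl+TGF replicate 3 (8.38). *SMAD4* differed by 0.14 on the log2 scale (95% interval -0.06 to 0.35, edgeR adjusted p = 0.720), and by 0.10 without AdSirt4+TGF replicate 1 (adjusted p = 0.263). With the trend on gene length removed *SMAD4* differed by 0.31, with a wider interval (95% interval -0.11 to 0.73, adjusted p = 0.560 from edgeR).

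**Figure D3:**
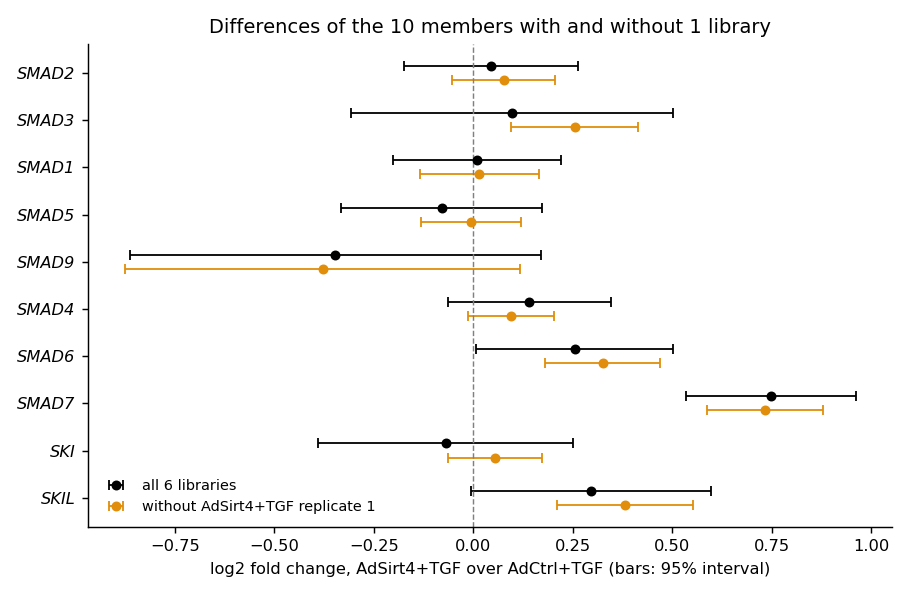
Log2 fold change of each member, AdSirt4+TGF over AdCtrl+TGF, from edgeR with all 6 libraries (black) and without AdSirt4+TGF replicate 1 (orange); bars are 95% intervals and the dashed line marks no difference. *SMAD7* is at 0.75 and 0.73, and the intervals of *SMAD3*, *SMAD6* and *SKIL* are narrower and farther right without this library.

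The deviation of AdSirt4+TGF replicate 1 from the other AdSirt4+TGF replicates differed from gene to gene. On the log2 CPM scale it was -0.55 for *SMAD3*, -0.43 for *SKI*, -0.28 for *SKIL*, -0.26 for *SMAD5* and -0.24 for *SMAD6*. For *SMAD7* it was 0.03, for *SMAD1* -0.03, for *SMAD9* 0.10, for *SMAD2* -0.11 and for *SMAD4* 0.12. The members that deviated most downward have merged exons of 6.08 to 9.11 kb. *SMAD1*, *SMAD7* and *SMAD9* are shorter (5.03 to 6.06 kb) and *SMAD2* and *SMAD4* longer, and these deviated less. The boundary is thin, since *SKI* (6.08 kb) and *SMAD1* (6.06 kb) are almost equal in length but deviated by -0.43 and -0.03. The part of gene length in these deviations was not tested.

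Ratios of FPKM within a library compare members independently of library scaling. The ratio of *SMAD7* to *SMAD6* was 1.46, 1.64 and 1.51 in AdCtrl+TGF replicates 1, 2 and 3, and 2.52, 2.12 and 2.15 in AdSirt4+TGF replicates 1, 2 and 3. All AdSirt4+TGF libraries were higher, and the log2 ratio differed by 0.56 (0.62 ± 0.09 against 1.17 ± 0.14, SD, n = 3, exact permutation p = 0.1, two-sided and the lowest possible). The ratio of *SKIL* to *SKI* was 0.941, 1.12 and 1.17 in AdCtrl+TGF and 1.47, 1.22 and 1.46 in AdSirt4+TGF. Again the groups did not overlap, and the log2 ratio differed by 0.36 (0.10 ± 0.17 against 0.46 ± 0.15, SD, n = 3, exact permutation p = 0.1). The difference was 0.47 for *SMAD7* to *SMAD6* and 0.31 for *SKIL* to *SKI* without AdSirt4+TGF replicate 1. With differences taken within each replicate number, an exact sign-flip test gave p = 0.25 for each of these ratios, its lowest possible value here.

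The ratios among the receptor-activated SMADs overlapped between the groups when all libraries were used. The ratio of *SMAD3* to *SMAD2*, whose height rests on the length of *SMAD2*, was 9.593, 10.15 and 10.01 in AdCtrl+TGF and 8.204, 10.47 and 12.02 in AdSirt4+TGF, a log2 difference of 0.03 (exact permutation p = 0.8, n = 3). The ratio of *SMAD2* plus *SMAD3* to *SMAD1*, *SMAD5* and *SMAD9* together was 1.11, 1.24 and 1.31 in AdCtrl+TGF and 1.08, 1.34 and 1.55 in AdSirt4+TGF, a log2 difference of 0.11 (exact permutation p = 0.6, n = 3). Without AdSirt4+TGF replicate 1 the difference for *SMAD3* to *SMAD2* was 0.18, with groups that did not overlap (exact permutation p = 0.1, the lowest possible). The difference for the branches was then 0.25 (exact permutation p = 0.2), and these groups did not overlap either. In both ratios AdSirt4+TGF replicate 1 was the lowest and replicate 3 the highest of all 6 libraries. After Benjamini-Hochberg adjustment over the 4 ratios, the exact permutation p was 0.2 for *SMAD7* to *SMAD6* and *SKIL* to *SKI* and 0.8 for the other ratios. Values under 0.05 are out of reach in this design.

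**Figure D4:**
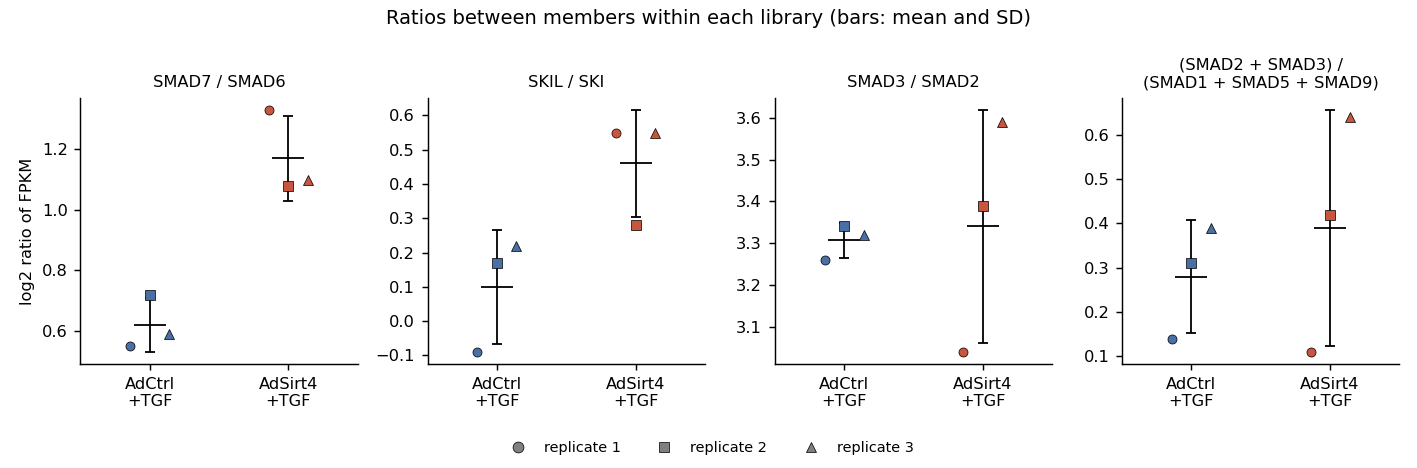
Log2 ratio of FPKM between members within each library, 1 panel per ratio with its own axis that does not start at 0; points are libraries by replicate symbol, bars the mean and SD of 3. The groups are apart for *SMAD7* to *SMAD6* and *SKIL* to *SKI* and overlap for the other ratios.

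As a share of the summed CPM per kb of the 10 members, the inhibitory SMADs made up 11.5%, 12.2% and 11.2% in AdCtrl+TGF and 17.42%, 15.09% and 14.97% in AdSirt4+TGF. The BMP-branch SMADs made up 17.4% ± 0.679 in AdCtrl+TGF and 15.2% ± 0.880 in AdSirt4+TGF (SD, n = 3), and the corepressors 38.3% ± 0.288 and 37.4% ± 1.36. These shares sum to the whole, so a rise of *SMAD7* lowers the others.

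The rest of the pathway was read from 7 lists, 95 genes in all, of which 87 were tested. None passed an adjusted p of 0.05 in edgeR, while DESeq2 called 3, all higher, where 0.525% of all genes were called higher. Limma voom with sample quality weights called 7 higher and 4 lower, where 4.62% and 4.12% of all genes were. At an unadjusted p under 0.05 in edgeR, 7 were higher and 3 lower in AdSirt4+TGF, where 4.43% of all genes were higher and 3.50% lower. The splits by sign below stand beside 9459 of 17720 genes above 0 with all libraries (median 0.021). Without AdSirt4+TGF replicate 1 this was 9031 of 18287 (median -0.003). Of the 17 tested genes known as targets of TGF-β and SMADs, 10 had a log2 fold change above 0 and 7 below, with a median of 0.057, and 6 were higher and 1 lower at an unadjusted p under 0.05, beside the 4.43% and 3.50% of all genes. The split was again 10 and 7 without AdSirt4+TGF replicate 1, with a median of 0.12. Those with small p values included *CCN2*, a matricellular growth factor (349.7 ± 2.84 against 581 ± 112 CPM, SD, n = 3, log2 fold change 0.73) and *CDKN2B*, a cell cycle inhibitor (13.9 ± 0.501 against 16.9 ± 0.755 CPM, log2 fold change 0.29). In both genes every AdSirt4+TGF library lay above every AdCtrl+TGF library, and their adjusted p from edgeR were 0.494 and 0.553. Leaving out AdSirt4+TGF replicate 1, *CDKN2B* had a log2 fold change of 0.26 (adjusted p = 0.0703 from edgeR). With sample quality weights *CDKN2B* passed, at 0.29 (adjusted p = 0.0268 from limma voom). Of the 7 tested BMP targets, 5 had a log2 fold change above 0, with a median of 0.17, and none passed at either p. The smallest p were those of *ID3* (log2 fold change -0.44), *ATOH8* (0.34) and *HES1* (0.14). When AdSirt4+TGF replicate 1 was left out, 2 of the 7 were above 0, with a median of -0.11, *ATOH8* at 0.37 and *HES1* at 0.09.

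Among the adaptors and receptor-level inhibitors, 7 of 10 tested genes had a log2 fold change above 0, with a median of 0.065, and 5 of 10 without AdSirt4+TGF replicate 1 (median -0.02). *PMEPA1*, a membrane protein that sequesters SMAD2 and SMAD3, had 68.2, 72.1 and 68.4 CPM in AdCtrl+TGF and 92.2, 92.8 and 117.0 CPM in AdSirt4+TGF, which did not overlap (log2 fold change 0.53, standard error 0.119, adjusted p = 0.494 from edgeR). *BAMBI*, a decoy receptor, had 21.5, 18.1 and 20.3 CPM in AdCtrl+TGF and 19.4, 12.3 and 11.1 CPM in AdSirt4+TGF (log2 fold change -0.49, adjusted p = 0.640 from edgeR), and *PPP1R15A* had a log2 fold change of 0.18 (0.12 without AdSirt4+TGF replicate 1). Without AdSirt4+TGF replicate 1, 10 of the pathway genes passed an adjusted p of 0.05 in edgeR, 8 higher and 2 lower, where 3.37% of all genes were called higher and 3.34% lower. The higher ones included *CCN2* (0.56), *PMEPA1* (0.59) and *PML* (0.30, named after its value was seen), and the lower ones were *ID3* (-0.84) and *BAMBI* (-0.78), as log2 fold changes. In DESeq2 with all libraries *CCN2* and *PMEPA1* were among the pathway genes called.

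No gene of the 4 other lists passed the adjusted test in edgeR with all libraries. *PML*, of the partners of SKI, passed without AdSirt4+TGF replicate 1 (adjusted p = 0.0271 from edgeR) and with sample quality weights (adjusted p = 0.0426 from limma), and *RUNX2* passed with sample quality weights (adjusted p = 0.0492 from limma). For 2 of these lists the sign of the median turned without AdSirt4+TGF replicate 1. All 13 tested nuclear cofactors had a log2 fold change below 0, with a median of -0.14, and for 6 of them every AdSirt4+TGF library lay below every control, where 9.77% of all genes did so. When AdSirt4+TGF replicate 1 was left out, 7 of the 13 cofactors were above 0 and the median was 0.03. The smallest p among them were those of *RUNX2* (19.0 ± 1.56 against 14.2 ± 3.20 CPM, SD, n = 3, log2 fold change -0.41), *MECOM* (-0.26) and *TGIF2* (-0.13), which were -0.27, -0.18 and -0.10 without AdSirt4+TGF replicate 1. Of the 15 genes of SMAD turnover, 12 were below 0, with a median of -0.11, and 10 were below 0 without AdSirt4+TGF replicate 1 (median -0.02). The smallest p were those of the deubiquitinating enzymes *USP11* (-0.20) and *USP4* (-0.28) and of the ubiquitin ligase *RNF111* (-0.31), which were -0.15, -0.11 and -0.14 without that library. Of the 13 receptors, 9 were below 0, with a median of -0.08, and 5 without AdSirt4+TGF replicate 1 (median 0.04). *ENG*, a coreceptor, had the smallest p of these (11.9 ± 1.33 against 8.77 ± 1.29 CPM, SD, n = 3, log2 fold change -0.44, adjusted p = 0.584 from edgeR), followed by *ACVR1B* (-0.24) and *TGFBR1* (0.16). Leaving out AdSirt4+TGF replicate 1, these were -0.33, -0.14 and 0.18. Of the 12 tested partners and relatives of SKI, 7 were above 0 and 5 below (6 and 6 without AdSirt4+TGF replicate 1), and *DACH1* (-0.28), *HDAC2* (0.22) and *HIPK2* (-0.45) had the smallest p, at -0.24, 0.05 and -0.15 without AdSirt4+TGF replicate 1. *HIPK2* had 126.7 CPM in AdSirt4+TGF replicate 1 and 297.0 to 300.7 CPM in the other AdSirt4+TGF replicates.

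**Figure D5:**
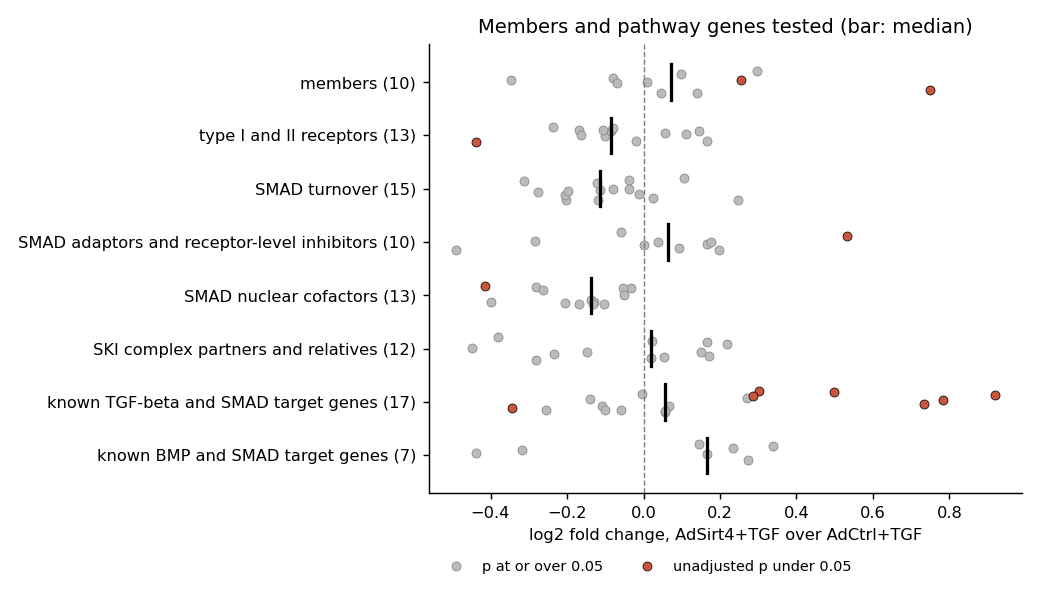
Log2 fold change of the 10 members and of the tested genes of each pathway list, with the number of genes in brackets; each point is a gene, red where its unadjusted p from edgeR is under 0.05, and the black bar is the median. *SMAD7* and the higher TGF-β targets are at the right, and all 13 nuclear cofactors lie below 0 (6 of 13 without AdSirt4+TGF replicate 1).

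Across the 6 libraries, the genes whose log2 CPM followed *SMAD7* most closely among 14101 compared were *OSR1* (Pearson r = 0.996), *CLEC4E* (0.995), *NSUN2* (0.994), *ADAMTS1* (0.991) and *TRPM2* (0.990). These points share the 2 groups, and each of the 5 genes had its groups apart, so the likeness describes the difference between groups more than anything within them. *ADAMTS1*, a secreted metalloproteinase, had 37.8, 39.1 and 40.3 CPM in AdCtrl+TGF and 80.1, 80.5 and 77.9 CPM in AdSirt4+TGF. Within the family, *SMAD7* was most like *SMAD4* (r = 0.862) and *SMAD6* (r = 0.812), and *SMAD6* most like *SKIL* (r = 0.858), as descriptions over 6 libraries.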

How the data were processed

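RNA-seq of 6 HK2 samples (AdCtrl+TGF and AdSirt4+TGF, 3 each) was compared. The authors deposited whole-number counts per gene without normalization. They also deposited a second table of the same genes, taken here as FPKM (counts per kb of gene and by depth), although its unit is not named. The gene lengths that FPKM and counts imply varied between libraries, from 4.85 to 5.74 kb for *SMAD6* and from 10.8 to 13.3 kb for *SMAD9*, so FPKM and counts can differ in a comparison. How the authors computed these FPKM is not given in the sources used here. The submitters' processing notes name fastp 0.21.0, HISAT2 2.1.0, StringTie 2.1.5, DESeq2 1.30.1 and the build hg38, without their roles. Depth was 41537353 to 85684748 counts per library. By the study's statement, n means technical replicates in vitro. If this covers these samples, p-values measure only the spread between them.

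Counts were filtered with filterByExpr (minimum count 10), scaled by TMM and tested across 17720 genes with edgeR 4.0.16 (robust quasi-likelihood, Benjamini-Hochberg, threshold 0.05) in R 4.3.3. Ratios of members were tested with the two-sided exact permutation test. The alternatives were DESeq2 1.42.0, RLE scaling, 2 other filters, the replicate block, limma 3.58.1 on log2(FPKM + 1) or log2(FPKM + 0.1), removal of each library's trend on exon length, limma voom with sample quality weights and each sample left out. The fits were tested on simulated data. Replicate numbers may pair the samples, since deviations from the group means correlated across genes at 0.178, 0.159 and 0.176 for the same number and between -0.188 and 0.030 otherwise. The pairing was used only in alternatives, as a block in edgeR or a sign-flip test of the ratios. The other fits and the permutation tests treated the samples as unpaired. No replicate was a copy of another, as the chi-square per gene between replicates was 9.36 to 213.

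The members and gene lists were chosen with earlier results of these data known. Named genes were the 10 members, the 3 genes with the smallest p in each list, antisense rows of members, *SIRT4*, marker genes by list and the 5 genes most correlated with *SMAD7* at a mean of at least 1 CPM. Some genes that meet this rule are not named here. Positions are those of the RefSeq gene table on GRCh38 and exon lengths those of GENCODE v29. Python 3.11.15, pandas 2.3.3, numpy 2.4.6, scipy 1.17.1 and matplotlib 3.10.9 were used.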

Additional observations from a re-analysis of the deposited data

How the results depend on the processing

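The count of members with an adjusted p under 0.05 was 0 in edgeR, 1 in DESeq2 (*SMAD7*) and 3 in limma voom with sample quality weights, where 0.525% and 4.62% of all genes were called higher in the last 2. Leaving out 1 library gave 0 to 3, the 3 without AdSirt4+TGF replicate 1, where 3.37% of all genes were called higher. The count with an unadjusted p under 0.05 was 2 in edgeR and 1 with all genes with at least 1 count, with at least 10 counts in every sample and in the 3 limma fits on FPKM. It was 4 with sample quality weights and 1 to 4 with a library left out, where 4 again came without AdSirt4+TGF replicate 1. The share of all genes at this unadjusted p was taken only for the edgeR fit of the Results, 4.43% higher and 3.50% lower. For the other fits, the block included, these counts are therefore not read as a result about the members. Of the pathway genes, 3 passed in DESeq2 and 11 with sample quality weights, and 0 to 10 with a library left out, the 10 without AdSirt4+TGF replicate 1. With the replicate number as a block, 0 members and 0 pathway genes passed an adjusted p of 0.05 and 2 members an unadjusted one, and the log2 ratio of *SMAD7* to *SMAD6* again differed by 0.56. At that unadjusted p the members were *SMAD7* and *SKIL* with the block and *SMAD7* and *SMAD6* without it, and the block changed no call at an adjusted p. *SMAD6*, *SMAD7*, *SKIL*, *SMAD2*, *SMAD4*, *SMAD5* and *SMAD9* kept the direction of their log2 fold change in every alternative run for them.

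The direction turned for members with differences near 0. *SMAD1* was -0.0206, -0.0229 and -0.0206 in the 3 limma fits on FPKM and -0.0190 to 0.0394 with a library left out. *SMAD3* ran from -0.0484 (without AdSirt4+TGF replicate 3) to 0.2545 (without AdSirt4+TGF replicate 1) with a library left out, and *SKI* from -0.142 to 0.0545, the latter without AdSirt4+TGF replicate 1. With sample quality weights *SKI* was 0.0510. With a library left out, the difference in the log2 ratio of *SMAD3* to *SMAD2* ran from -0.098 to 0.178, and that of the TGF-β to the BMP branch from -0.015 to 0.247. The lowest value of both came without AdSirt4+TGF replicate 3 and the highest without AdSirt4+TGF replicate 1. The cause was not tested. With 3 samples a group, no exact permutation p can pass 0.05.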
